A study of Mus musculus with 18 samples.

Results

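The proteasome genes described here are all mouse genes whose symbol starts with Psma, Psmb, Psmc, Psmd, Psme or Psmg, with Psmf1, that have at least 1 probe set carrying a single gene symbol on the array. The rule used names and no measured value, and it found 48 genes with 85 probe sets, of 12393 genes in all. Each gene was represented by its probe set of highest mean log2 signal over the 18 arrays. Of the 48 genes, 44 passed the filter for testing (signal above the array median on at least 3 of 18 arrays), as did 10020 of the 12393 genes. Psme2, an interferon-induced activator subunit, was left out because its probe set is shared with Psme2b. Psmc3ip, a factor of meiotic recombination, and Psme3ip1, which binds the activator protein PSME3, fall under the naming rule but are not subunits.

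The study measured RNA of lumbar spinal motor neurons of mice that carry the SOD1 G93A transgene, a model of familial amyotrophic lateral sclerosis in which mutant human superoxide dismutase is expressed, at 60, 90 and 120 days of age. The controls were non-transgenic littermates of the same 3 ages. There were 3 animals in each of the 6 groups and 1 array for each animal. Laser capture took 1000 neurons per animal out of toluidine blue stained sections 10 µm thick, and the amplified, biotin-labelled RNA was hybridized to 1-colour oligonucleotide arrays. The transgene is expressed throughout the body in this model, so neighbouring glia carry it too, and no strain, sex or transgene copy number is stated in the labels.

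The proteasome is the protease that degrades ubiquitin-tagged proteins in the cytosol and nucleus. Its core particle stacks outer rings of alpha subunits, which gate the channel, on inner rings of beta subunits, which hold the proteolytic sites, and a regulatory particle with a base of ATPases and a lid that removes ubiquitin caps it. Interferon can exchange the catalytic beta subunits for immunoproteasome subunits, and ubiquitin-rich inclusions in motor neurons are a known feature of the disease and of this mouse model.

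Promoter windows are shown for 3 of the genes that changed in these data (Psma3, Psma7 and Psmd14) and for the catalytic subunits Psmb5 and Psmb6. They come from RefSeq promoters of build GRCm38.p6, which run from 250 bases before to 50 bases after the gene start and were found for 40 of the 48 genes. Capitals mark a CCAAT box (CCAAT, or ATTGG where it lies on the other strand) in the first 3 and the antioxidant response element core (TGACNNNGC) in the others, and only a match before the start is shown.
Psma3, chr12:70974454-70974518, + strand: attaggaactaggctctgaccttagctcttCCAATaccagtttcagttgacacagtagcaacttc
Psma7, chr2:180042626-180042690, - strand: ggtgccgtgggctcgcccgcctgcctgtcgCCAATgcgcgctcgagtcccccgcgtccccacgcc
Psmd14, chr2:61711505-61711569, + strand: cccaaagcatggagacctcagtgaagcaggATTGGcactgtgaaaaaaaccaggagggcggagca
Psmb5, chr14:54618004-54618072, - strand: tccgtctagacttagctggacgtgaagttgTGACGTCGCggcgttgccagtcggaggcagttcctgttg
Psmb6, chr11:70525318-70525356, + strand: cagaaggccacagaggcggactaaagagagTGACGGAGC
The printed box lies 139 bases before the start of Psma3, 196 before that of Psma7 and 159 before that of Psmd14. Searched on both strands, CCAAT was present for 15 of the 40 proteasome genes with a promoter (37.5%) and for 41.1% of all 27025 genes with one. A gene with several promoters was counted once. Of the 7 alpha ring genes with a promoter 5 held it (71.4%): Psma1, Psma2, Psma3, Psma6 and Psma7. The share was 37.5% in the base, 33.3% in the immunoproteasome subunits and 25% in the beta ring. It was 25% in the activators and inhibitor, 16.7% in the lid and 16.7% in the assembly chaperones. Psmc3ip and Psme3ip1, which are not subunits, held it too. Among the genes called in a comparison below, CCAAT was found for Psma3, Psma7, Psmd14, Psmc1 and Psme3. It was not found for Psma5, Psmb6, Psmb10 and Psmc3, which were called as well. TGACNNNGC, the core of the element through which the transcription factors NRF1 and NRF2 are known to act on proteasome genes, was present for 6 of 40 genes (15%), against 14% of all genes with a promoter. It lies 47 bases before the start of Psmb5 and 9 before that of Psmb6. A further motif searched, TTCNNNGAA, was present for 3 of 40 genes (7.5%), against 9.55% of all genes with a promoter. The matches are descriptions of these windows and no binding was measured.

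The captures and arrays were checked first. The neurofilament gene Nefl had signals of 6044.4 to 26845.7 and Isl2 of 94.1 to 314.9 over the 18 arrays, but the cholinergic markers Slc18a3 (2.7 to 53.2) and Slc5a7 (2.2 to 77.1) were low throughout, and Chat was not analysed here. The myelin gene Mbp was at 6595.7 to 31699.6, high throughout. Hybridization controls (12 probe sets, mean log2 signal) stood at 10.35, 10.17 and 12.62 in G93A arrays at 60, 90 and 120 days, against 12.02, 10.92 and 12.63 in control arrays, and the first G93A array at 60 days stood lowest at 8.66. For Gapdh the 3' probe set exceeded the 5' one, a measure of RNA length, by a log2 ratio of 4.14, 4.39 and 4.94 in G93A arrays and 3.36, 3.25 and 4.48 in control arrays. In such captures a smaller share of motor neuron RNA and less RNA of a gene per neuron cannot be told apart. The p-values measure only the spread between these animals.

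As a group the proteasome genes were lower in G93A neurons at 120 days. Over all 48 genes, the mean log2 level of an array minus the mean of all genes was 0.80 to 1.47 in G93A and 0.82 to 1.08 in controls at 60 days, 1.48 to 1.76 in G93A and 1.43 to 1.72 in controls at 90 days, and 0.65 to 1.12 in G93A against 1.36 to 1.75 in controls at 120 days. The genotypes overlapped at 60 and 90 days and did not overlap at 120 days, where all 3 G93A arrays were below all 3 control arrays. Among the genes that failed the filter, Psma8, the alpha subunit of male germ cells, was above the array median on 1 array. The immunoproteasome subunit Psmb8 was above it on 0 of 18 arrays (signal 1.9 to 11.7) and Psmb9 on 1 (2 to 127). The lid subunit Psmd7 was above it on 2 arrays (4.1 to 71.1).

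**Figure D1:**
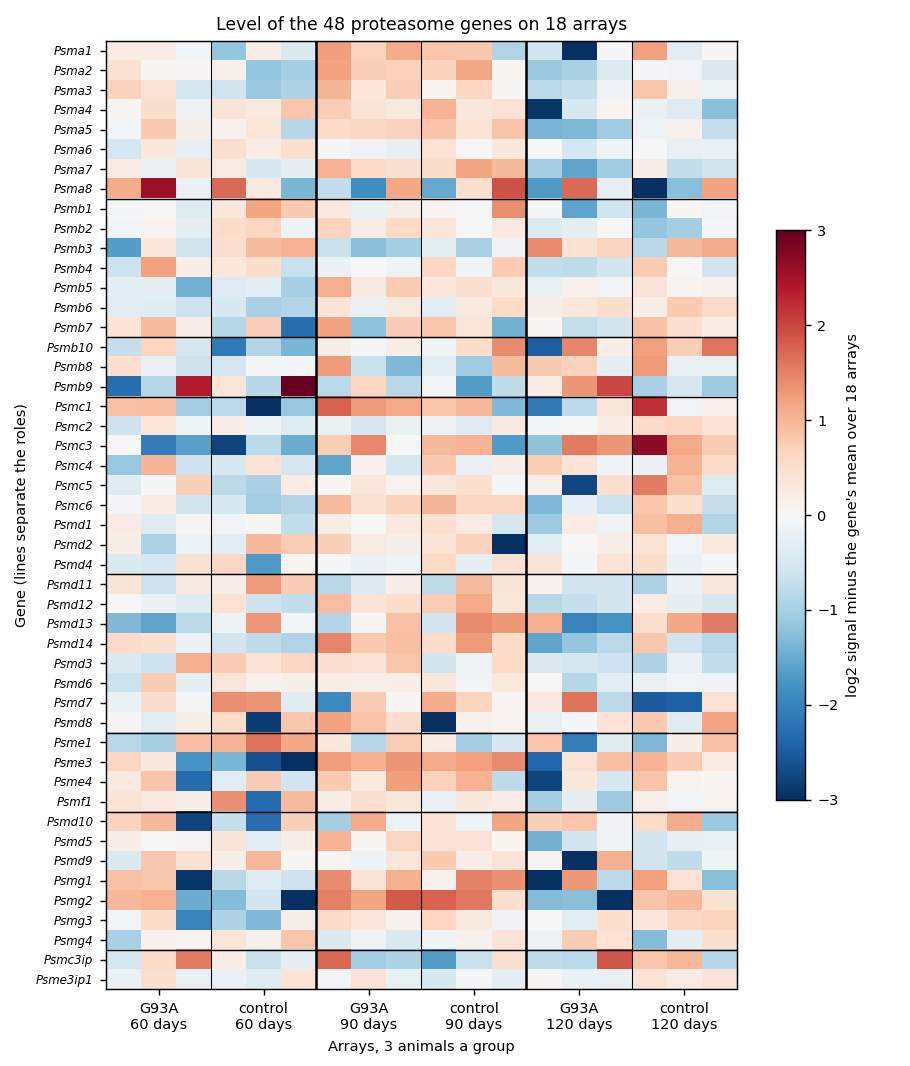
Each row is 1 of the 48 proteasome genes and each column 1 of 18 arrays, in 6 groups of 3 animals with G93A left of control at each age; colour is the log2 signal minus that gene's mean over the 18 arrays. The 120-day G93A columns are mostly on the blue (low) side of their own controls.

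At 120 days, 38 of the 44 tested proteasome genes had a mean log2 signal below control in G93A neurons and 6 above, with a median difference of -0.50 (all genes: 46.4% below, median 0.07). No single gene passed the test: limma called 0 of 44 at adjusted p under 0.05, against a background of 0.0299% of the 10020 genes. At unadjusted p under 0.05, 10 were lower (background 6.25%) and 0 higher (background 5.69%). The 10 were Psma1, Psma3, Psma5, Psma7, Psmc1, Psmc5, Psmc6, Psmd13, Psmd14 and Psmg2. In 8 genes all 3 G93A arrays lay below all 3 control arrays (background 6.72%), and in 0 the reverse held (background 9.42%). The 8 were Psma5, Psma7, Psmb7, Psmc2, Psmd12, Psmf1, Psmg2 and Psme3ip1. The count of 10 was 3 without the first control array at 120 days and 6 without the first G93A array, and it was 5 with array weights, 6 of 41 tested as means of all probe sets and 15 with arrays centred on their medians.

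The alpha ring, whose subunits form the gate and dock the regulatory particles, had no called gene at 120 days. All 7 tested members were below control at that age, 4 of them at unadjusted p under 0.05, with a median difference of -0.82 and a range of -1.55 to -0.08. The mean level of the ring's 8 genes relative to all genes was 0.95 to 1.77 in G93A arrays and 1.93 to 2.28 in control arrays, without overlap. Psma5 had signals of 641.2, 659.2 and 798.9 in G93A neurons at 120 days, against 1523.3, 1836.7 and 1020.8 in controls. The groups did not overlap, and the difference was -1.03 ± 0.32 on the log2 scale (SE, n = 3 animals a group; limma adjusted p = 0.201), so it did not pass the test. Psma7 had 124.5, 84.2 and 121.1 in G93A neurons, against 288.7, 150.9 and 165.8 in controls. The highest G93A array lay below the lowest control array. Psma1 had 56.3, 9.7 and 80.2 in G93A neurons and 194.2, 65.8 and 85.6 in controls, which overlapped. Psma6 was the member of the ring nearest to no difference, at 2889.9, 1981.6 and 2609.7 in G93A neurons and 2863, 2460.9 and 2504.8 in controls.

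Of the 7 members of the beta ring 5 were below control at 120 days, 0 at unadjusted p under 0.05, and the median difference was -0.26, with a range of -0.96 to 0.50. The mean level of the ring relative to all genes was 2.25 to 2.59 in G93A arrays and 2.71 to 2.89 in control arrays, without overlap. Without subtraction of the mean of all genes, the ring's mean log2 level did overlap (8.12 to 8.50 in G93A arrays, 8.30 to 8.67 in control arrays). Its summed signal overlapped too (5826.3 to 9441.8 in G93A arrays, 4303.9 to 8466.3 in control arrays). Psmb5, the chymotrypsin-like subunit, had signals of 179, 230.9 and 199.2 in G93A neurons and 276.4, 223 and 230.3 in controls. These groups overlapped, with a difference of -0.26 ± 0.35. Psmb6, the caspase-like subunit, had 958.7, 1054.6 and 1209.1 in G93A neurons and 950.3, 1461.5 and 1257.2 in controls. The difference was -0.17 ± 0.29, and with quantile normalization it was 0.06. Psmb7, the trypsin-like subunit, had 41.6, 24.2 and 26.2 in G93A neurons and 73.6, 56.2 and 46.9 in controls. Its groups did not overlap, but at these low signals the error was wide (-0.96 ± 0.82). The 2 members above control were non-catalytic. Psmb2 had 159.6, 175.3 and 211 in G93A neurons and 96, 105 and 207.8 in controls, and Psmb3 had 7445, 3834.2 and 4445.6 in G93A neurons and 1562.2, 5456.2 and 6016.5 in controls. Both overlapped, and in Psmb3 the first control array stood far below the other 2. Whether the alpha and beta rings differ from each other was not tested.

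Of the immunoproteasome subunits only Psmb10, which takes the place of Psmb7, was high enough to test. It had signals of 9.1, 138.5 and 57.9 in G93A neurons at 120 days, against 117.3, 84.5 and 153.2 in controls. A single G93A array was within the control range and the other 2 were below it, and the difference was -1.46 ± 0.77 (limma adjusted p = 0.459). Psmb8, which takes the place of Psmb5, had 8.2, 7.8 and 4 in G93A neurons and 11.6, 4.2 and 4.1 in controls. Psmb9, which takes the place of Psmb6, had 11.3, 24 and 38.5 in G93A neurons and 4.9, 6.7 and 4.5 in controls. Psmb9 was higher on every G93A array, but at signals below the array median that were not tested. Of 8 measured antigen presentation genes (such as B2m and Tap1), 6 were tested and 0 were called at any of the 3 ages, with 0 at unadjusted p under 0.05.

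In the base, which unfolds the substrate and feeds it into the core, 8 of 9 members were below control at 120 days, 3 at unadjusted p under 0.05, with a median of -0.69 and a range of -1.59 to 0.15. The ATPase Psmc6 had signals of 110.2, 232.5 and 177.8 in G93A neurons, against 492.8, 386.6 and 171.6 in controls. The lowest control array lay within the G93A range, and the difference was -0.95 ± 0.37 (limma adjusted p = 0.303). The ATPase Psmc2 had 4580.4, 4744.5 and 5579.7 in G93A neurons and 7052.8, 7446.7 and 6406.7 in controls, without overlap. Psmc1 had 26.8, 66.3 and 149 in G93A neurons and 528, 109 and 125.9 in controls, and Psmc5 had 89, 12.1 and 114.4 in G93A neurons and 233.7, 147.5 and 62.1 in controls. The G93A arrays within the control range numbered 1 for Psmc1 and 2 for Psmc5. Psmd4, a ubiquitin receptor, was the base member above control, at 210.7, 156.4 and 212 in G93A neurons and 231, 141.2 and 157.6 in controls. The median of the base was -1.32 without the third control array at 120 days and -0.35 without the first G93A array.

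In the lid 6 of 7 tested members were below control at 120 days, 2 at unadjusted p under 0.05, with a median of -0.51 and a range of -1.97 to 0.11. Psmd14, the metalloprotease that cuts the ubiquitin chain off a substrate, had signals of 206.8, 272.8 and 350 in G93A neurons, against 1067.8, 405.3 and 344 in controls. The groups overlapped by 1 pair of arrays, and the difference was -0.97 ± 0.36 (limma adjusted p = 0.275). The difference was -0.47 without the first control array. The lid subunit Psmd12 had 174, 192.8 and 211.8 in G93A neurons and 363, 258.7 and 221.7 in controls, without overlap. Psmd3, the lid member above control, had 84.2, 80.2 and 74.3 in G93A neurons and 60, 98.4 and 68.2 in controls, which overlapped. Psmd13 had 48.4, 5.7 and 6.6 in G93A neurons and 32.3, 51.1 and 65.9 in controls. Over the 3 ages together it was the proteasome gene of smallest p (-1.42 ± 0.55, limma adjusted p = 0.552), the 1 gene lower at unadjusted p under 0.05 (background 3.52%), while 0 of 44 were called (background 0.02%).

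The activators and the inhibitor were below control in 4 of 4 genes at 120 days, 0 at unadjusted p under 0.05, with a median of -0.95 and a range of -1.32 to -0.44. Their mean level relative to all genes was -1.16 to -0.08 in G93A arrays and 0.56 to 0.67 in control arrays, without overlap. The inhibitor and adaptor gene Psmf1 had signals of 30.4, 50.9 and 29.3 in G93A neurons and 69.3, 59 and 66.9 in controls. Its highest G93A array lay below its lowest control array. Psme4, an activator active in the nucleus, had 11.8, 100.1 and 55.9 in G93A neurons and 144.4, 85.3 and 83 in controls, which overlapped. Psme3, the nuclear activator, had 10.7, 75 and 103.7 in G93A neurons and 114.9, 95.1 and 66.6 in controls, which overlapped as well. Psme1, the partner of Psme2, had 136.9, 18.8 and 60.6 in G93A neurons and 30.5, 88.2 and 143.4 in controls, and these overlapped. Its difference of -0.44 ± 0.70 was 0.32 without the second G93A array and 0.05 without the third control array.

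Of the 7 assembly chaperones 5 were below control at 120 days, with a median of -0.37 and a range of -2.67 to 0.71. Their mean level relative to all genes was -0.67 to -0.16 in G93A arrays and 0.09 to 0.55 in control arrays, without overlap. Psmg2, which with Psmg1 helps to build the alpha ring, had signals of 12, 12.5 and 3.3 in G93A neurons at 120 days, against 53.5, 58.7 and 41 in controls. All 3 G93A arrays were below the control range, with a difference of -2.67 ± 0.91 (limma adjusted p = 0.238) at signals near or below the array median. As the mean of both its probe sets the difference of Psmg2 was -0.72. Psmg1 had 2.5, 78.4 and 18.2 in G93A neurons and 74.2, 42.5 and 13.1 in controls, which overlapped. The 2 chaperones above control were Psmg4, at 52.7, 100 and 79.1 in G93A neurons and 23.9, 48 and 82.8 in controls, and Psmd10, a base chaperone, at 50.4, 54.8 and 28.7 in G93A neurons and 45.3, 66.4 and 14.2 in controls. Their groups overlapped. Outside the complex, Psme3ip1 had 121.9, 101.3 and 98.9 in G93A neurons and 157.3, 138.7 and 157.2 in controls, without overlap.

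**Figure D2:**
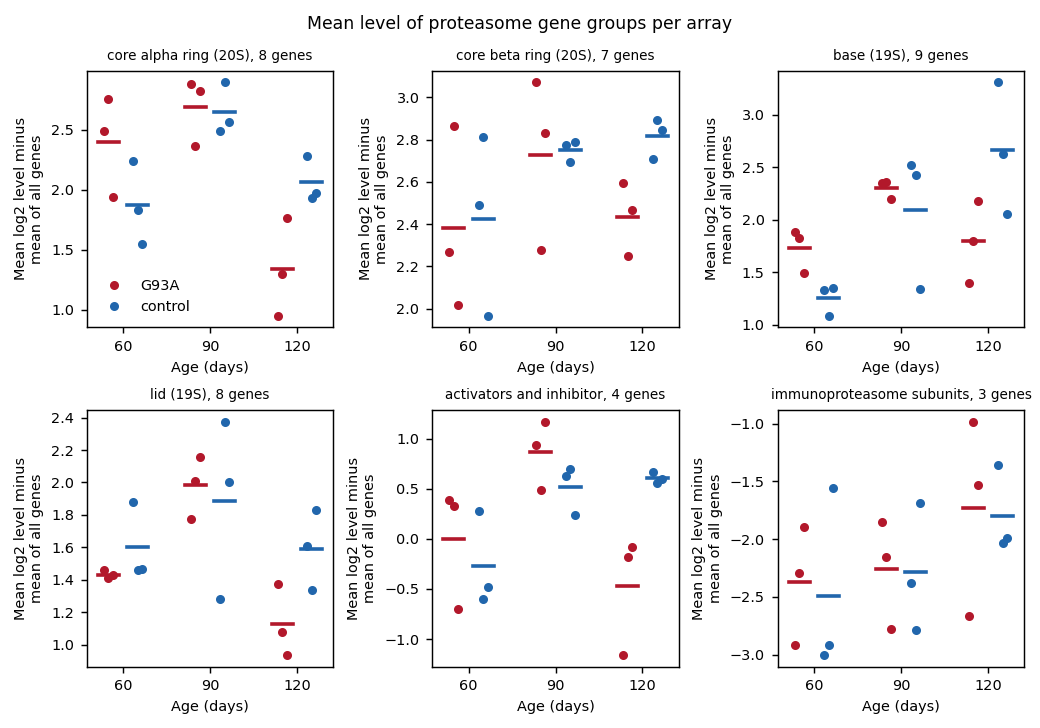
Points are arrays and lines the means of 3 animals; the vertical axis is the mean log2 level of the genes of a role minus the mean of all genes on that array, and the horizontal axis is age in days, with G93A left of control. At 120 days the genotypes are apart in the alpha ring (0.95 to 1.77 in G93A, 1.93 to 2.28 in controls). They are also apart in the beta ring (2.25 to 2.59 in G93A, 2.71 to 2.89 in controls), though not without subtraction of the mean of all genes. The same holds for the activators and inhibitor (-1.16 to -0.08 in G93A, 0.56 to 0.67 in controls). At 120 days the genotypes overlap in the base, the lid and the immunoproteasome subunits, of which 1 of 3 was tested. At 60 days they are apart in the base, with G93A higher (1.490 to 1.883 in G93A, 1.086 to 1.349 in controls). In the lid they are narrowly apart at 60 days, with G93A lower (1.412 to 1.458 in G93A, 1.463 to 1.877 in controls).

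Marker genes of other cell types were read on the same arrays, and limma called 0 of them between the genotypes at this age. The summed signal of 15 microglial markers was 13796 to 25502 in G93A arrays at 120 days, against 5196.7 to 8317.2 in control arrays. Of 13 tested microglial markers 12 were above control and 6 were higher at unadjusted p under 0.05 (background 5.69%). The summed signal of 10 measured motor neuron markers was 8871.4 to 16435 in G93A arrays, against 14579 to 28878 in control arrays. Of the 8 tested 3 were lower at unadjusted p under 0.05 (background 6.25%), with a median of -0.75. For 8 oligodendrocyte markers the sum was 26517 to 40665 in G93A arrays and 23244 to 40670 in control arrays, and for 10 astrocyte markers it was 8090.8 to 10716 in G93A arrays and 5738.6 to 8722 in control arrays. For 8 interneuron markers the sum was 745.7 to 972.2 in G93A arrays and 980.8 to 1768.5 in control arrays, and for 7 endothelial markers it was 414.9 to 486 in G93A arrays and 404.7 to 568.2 in control arrays. The microglial and interneuron sums did not overlap between the genotypes, and the other 4 did. As mean log2 levels relative to all genes, the measure used for the proteasome, the motor neuron markers did not overlap either and were lower on all 3 G93A arrays (0.740 to 0.996 in G93A arrays, 1.45 to 2.13 in control arrays). The part of these markers in the lower proteasome values was not tested.

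At 60 days the proteasome genes were split. Of the 44 genes 27 were above control in G93A neurons and 17 below, with a median of 0.19 (all genes -0.07). Limma called 0 of 44 (background 0.659%). At unadjusted p under 0.05, 6 were higher (background 8.1%) and 2 lower (background 4.87%). In 3 genes all G93A arrays lay above all control arrays (background 8.19%) and in 5 below (background 10.8%). The median was 0.42 for the alpha ring, 0.22 for the base, -0.12 for the beta ring and -0.28 for the lid. As mean levels relative to all genes, the base and the lid did not overlap between the genotypes at 60 days. The base was higher on all G93A arrays (1.490 to 1.883 in G93A, 1.086 to 1.349 in controls). The lid was narrowly lower on all G93A arrays (1.412 to 1.458 in G93A, 1.463 to 1.877 in controls). The other roles overlapped at this age.

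Psma3, an alpha ring subunit, had signals of 923.7, 770.1 and 396.2 in G93A neurons at 60 days, against 378, 264.3 and 299.1 in controls. Every G93A array was above every control array, with a difference of 1.08 ± 0.34 (limma adjusted p = 0.143). Psmd14 had 908.6, 875.9 and 544.7 in G93A neurons, against 417.5, 361.2 and 327.9 in controls, also without overlap (1.04 ± 0.36, limma adjusted p = 0.193). Psme3 had 87.9, 70.3 and 16.2 in G93A neurons and 21.4, 9 and 4.5 in controls. These overlapped, with a difference of 2.28 ± 0.78 (limma adjusted p = 0.182). The ATPase Psmc1 also overlapped, at 213.1, 215.7 and 56.1 in G93A neurons and 66.6, 12.2 and 52.5 in controls (1.97 ± 0.74, limma adjusted p = 0.240).

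In the other direction at 60 days stood Psmb3 and Psme1. Psmb3, a non-catalytic beta subunit, had 879.7, 3449.4 and 1835.3 in G93A neurons, against 3967.8, 5399.1 and 5744.8 in controls. Its groups did not overlap (-1.49 ± 0.46, limma adjusted p = 0.139). Psme1 had 43.4, 38.9 and 143.5 in G93A neurons and 156.8, 240.3 and 174 in controls, without overlap (-1.59 ± 0.70, limma adjusted p = 0.337). With the mean of the hybridization controls as a covariate, 0 proteasome genes were higher and 0 lower at unadjusted p under 0.05 at 60 days, and the median over the 44 genes was -0.05. Without the first G93A array, whose hybridization controls were lowest, 3 were higher and 1 was lower. The summed motor neuron markers were 7647.3 to 19239 in G93A arrays and 18942 to 28397 in control arrays at 60 days, the oligodendrocyte markers 12801 to 20839 in G93A arrays and 11851 to 14022 in control arrays, and the microglial markers 2989.7 to 3981.6 in G93A arrays and 2740.5 to 5181.1 in control arrays. These sums overlapped between the genotypes, while as mean log2 levels relative to all genes the oligodendrocyte markers did not (2.58 to 3.47 in G93A arrays, 1.78 to 2.32 in control arrays). Of 13 tested microglial markers 5 were above control and 8 below, and limma called 1 higher (background 0.659% in either direction). The part of these markers was not tested.

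At 90 days 22 of the 44 genes were above control and 22 below, with a median of -0.01 (all genes -0.01). Limma called 0 of 44 (background 0%), 1 was higher at unadjusted p under 0.05 (background 2.55%) and 0 lower (background 2.18%). The 1 gene was the lid subunit Psmd8, with signals of 152.5, 119.5 and 95.2 in G93A neurons, against 7.9, 71.4 and 70.6 in controls. Its groups did not overlap (1.82 ± 0.82, limma adjusted p = 0.997), and the difference was 0.76 without the first control array at 90 days. Psma5 had 2485.1, 2575.3 and 2697.3 in G93A neurons and 3013.2, 2226.3 and 3023.7 in controls at this age, which overlapped.

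**Figure D3:**
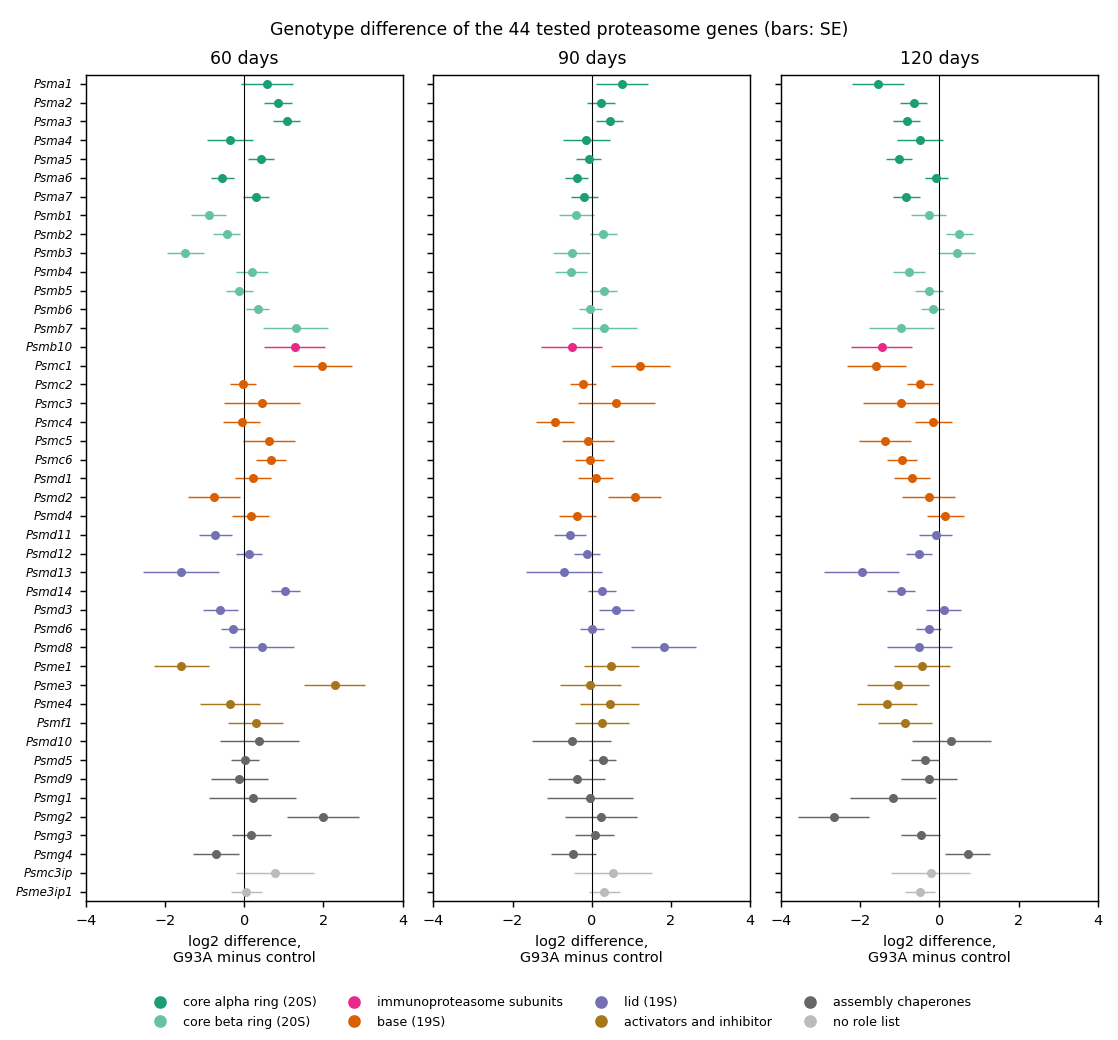
Points are the log2 differences of the 44 tested proteasome genes, G93A minus control, at 60, 90 and 120 days, with SE as bars and colour for the role. At 60 days 27 points are above 0, at 90 days 22 and at 120 days 6, and at no age did a gene pass adjusted p under 0.05.

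A change of the genotype difference itself with age was called in 2 proteasome genes. The difference at 120 days minus that at 60 days was negative in 34 of the 44 genes, with a median of -0.65 (all genes 0.13). Limma called 2 of 44, Psma3 and Psmd14, both lower (background 1.88% lower and 2.11% in either direction). At unadjusted p under 0.05, 12 were lower (background 9.59%) and 1 higher (background 8.2%). These 12 lay in the alpha ring (5 of 7), the base (3 of 9), the lid (1 of 7), the activators and inhibitor (1 of 4), the chaperones (1 of 7) and Psmb10.

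Psma3 in G93A neurons had mean log2 signals of 9.36 ± 0.64, 9.86 ± 0.36 and 8.62 ± 0.39 (SD, n = 3) at 60, 90 and 120 days, against 8.28 ± 0.26, 9.41 ± 0.32 and 9.45 ± 0.50 in controls. At 120 days its signals were 325.5, 352 and 534.9 in G93A neurons and 1025.2, 637 and 520.4 in controls. It was thus above control at 60 days and below at 120 days, and the change in the difference was -1.90 ± 0.48 (limma adjusted p = 0.0390). Psmd14 in G93A neurons had 9.56 ± 0.41, 10.31 ± 0.36 and 8.08 ± 0.38 at 60, 90 and 120 days, against 8.52 ± 0.18, 10.06 ± 0.42 and 9.05 ± 0.88 in controls. Its change in the difference was -2.02 ± 0.51 (limma adjusted p = 0.0396). Both calls sat near the threshold. Psmg2 (-4.66 ± 1.28, limma adjusted p = 0.0561) and Psmc1 (-3.56 ± 1.05, limma adjusted p = 0.0768) came next and did not pass, nor did Psmb3 in the other direction (1.92 ± 0.66, limma adjusted p = 0.124).

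Psma3 lost its call without any 1 of 9 arrays, with an adjusted p of 0.054 to 0.134. They were G93A replicates 1 and 2 and control replicates 2 and 3 at 60 days, G93A replicate 3 at 90 days, and G93A replicates 1 and 2 and control replicates 1 and 2 at 120 days. Psmd14 lost its call without any 1 of 9 arrays as well, with an adjusted p of 0.0504 to 0.123. They were G93A replicates 1 and 2 and control replicates 2 and 3 at 60 days, G93A replicates 2 and 3 at 90 days, and G93A replicates 1 and 2 and control replicate 1 at 120 days. Over all 18 fits that left out 1 array the change of Psma3 was between -2.27 and -1.63 and that of Psmd14 between -2.33 and -1.51. With the mean of the hybridization controls as a covariate the changes were -1.24 for Psma3 and -1.37 for Psmd14, and 0 proteasome genes were called.

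**Figure D4:**
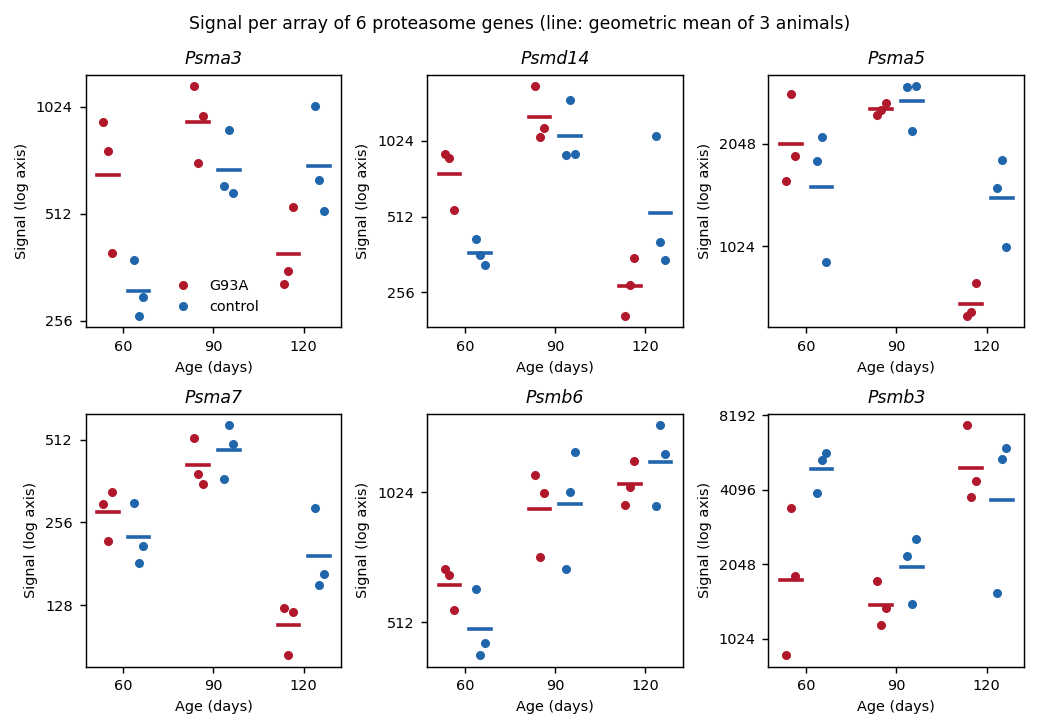
Signal per array (log axis) of Psma3, Psmd14, Psma5, Psma7, Psmb6 and Psmb3 against age in days, with G93A left of control; lines are geometric means of 3 animals. Psma3 and Psmd14 in G93A neurons lie above control at 60 days (Psma3 396.2 to 923.7 against 264.3 to 378) and mostly below it at 120 days, while Psmb6 overlaps between genotypes at each age.

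Within G93A neurons, 3 proteasome genes fell between the 2 outer ages. Of the 44 genes 31 were lower at 120 than at 60 days, with a median of -0.40 (all genes -0.11). Limma called 3 lower (background 1.13%) and 0 higher (background 1.13%), and at unadjusted p under 0.05 9 were lower (background 10.1%) and 2 higher (background 7.19%). Psma5 had 641.2, 659.2 and 798.9 at 120 days and 1589.5, 2872.3 and 1890.3 at 60 days, and it fell by 1.56 ± 0.32 in log2 signal (limma adjusted p = 0.0152). All 3 arrays at 120 days were below all 3 at 60 days. Psmd14 fell by 1.49 ± 0.36 (limma adjusted p = 0.0332) and Psma7 by 1.36 ± 0.34 (limma adjusted p = 0.0345). Psma7 had 124.5, 84.2 and 121.1 at 120 days and 298.6, 219.3 and 330.9 at 60 days, without overlap. Psma2 was next (-1.02 ± 0.35, limma adjusted p = 0.123), and among the genes above 0 the smallest p were those of Psmb3 (1.50 ± 0.46, limma adjusted p = 0.0921) and Psmb6 (0.77 ± 0.29, limma adjusted p = 0.167). The count of 3 was 0 without the second G93A array at 60 days or the second at 120 days, and 1 without the first at either age. In the same arrays 4 of 13 tested microglial markers were called higher at 120 than at 60 days and 0 lower. The summed oligodendrocyte markers in G93A arrays were 26517 to 40665 at 120 days and 12801 to 20839 at 60 days. The mean hybridization-control level was 12.62 at 120 days and 10.35 at 60 days. With that level as a covariate 0 proteasome genes were called, and the part of the markers was not tested.

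Within controls, 6 proteasome genes rose instead. Of the 44 genes 29 were higher at 120 than at 60 days, with a median of 0.51 (all genes -0.22). Limma called 6 higher (background 4.12%) and 0 lower (background 2.9%), and 10 were higher (background 10.8%) and 4 lower (background 13.8%) at unadjusted p under 0.05. Psmb6 rose by 1.28 ± 0.29 (limma adjusted p = 0.00898), with 950.3, 1461.5 and 1257.2 at 120 days against 612.7, 430.4 and 458.8 at 60 days. The ages did not overlap. Psme3 rose by 3.24 ± 0.78 (limma adjusted p = 0.0144), with 114.9, 95.1 and 66.6 at 120 days against 21.4, 9 and 4.5 at 60 days. On another probe set of Psme3 the same comparison gave -2.71 (limma adjusted p = 0.0583), in the opposite direction. The others were Psma3 (1.17 ± 0.34), Psmb10 (2.65 ± 0.77), Psmc1 (2.47 ± 0.74) and Psmc3 (3.21 ± 0.97), with limma adjusted p between 0.0387 and 0.0458.

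The ATPase Psmc3 had 191.1, 65.3 and 50 at 120 days against 4.3, 17.2 and 10.6 at 60 days in controls, and its 60-day signals lay below the array median. Lower values with age in controls did not pass the test: Psmb2 (-1.09 ± 0.34, limma adjusted p = 0.0530), Psmb1 (-1.23 ± 0.44, limma adjusted p = 0.0869), Psmd3 (-1.23 ± 0.45, limma adjusted p = 0.0914) and Psmd11 (-1.01 ± 0.42, limma adjusted p = 0.133). The count of 6 was 1 without the first control array at 120 days, 3 without the second, 2 without the second control array at 60 days, 1 without the third (where Psmb2 was called lower, at -1.34, limma adjusted p = 0.0437), 2 without the third G93A array at 90 days, and 0 with the Gapdh ratio in the model. The Gapdh log2 ratio was 4.48 in controls at 120 days and 3.36 at 60 days. The summed signal of the oligodendrocyte markers in controls was 23244 to 40670 at 120 days and 11851 to 14022 at 60 days. Of 13 tested microglial markers limma called 3 higher and 3 lower at 120 than at 60 days in controls. The part of these markers in the proteasome values was not tested.

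For Psma3 and Psmd14, the 60-day and 120-day comparisons share no array, but the changes with age and the change in the difference are built from the same 12 arrays and are not separate evidence.

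Other probe sets of the same genes differed in part from the chosen ones. Of 23 tested other probe sets of 16 genes, 17 had the sign of the chosen probe set at 120 days and 6 the opposite, and their median difference was -0.17. At unadjusted p under 0.05, 4 were lower (background over genes 6.25%) and 3 higher (background over genes 5.69%). The alpha ring gene Psma7 had -1.84 on its other probe set, and the beta subunit Psmb4 had -1.68, with a change in the difference from 60 to 120 days of -2.83 (limma adjusted p = 0.0349). Psmc6 had -1.27 on its other tested probe set, with a change in the difference of -2.49 (limma adjusted p = 0.0360). Psma5 had -0.75 on one other probe set and 0.80 on another. Psma6 had 1.15, Psme3 2.61 and Psmf1 1.52 on an other probe set, each opposite to the chosen one, while Psma6 had -0.93 and Psmf1 -0.09 on a further one and both other probe sets of Psme4 were below control (-0.174 and -0.999). As means of all probe sets 3 of 3 tested activators and inhibitors were below control with a median of -0.44, and with probe sets other than _x_at and _s_at preferred 4 of 4 with a median of -0.30. Psma3 and Psmd14 had 1 probe set each, so no second probe set was available for the 2 called genes.

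**Figure D5:**
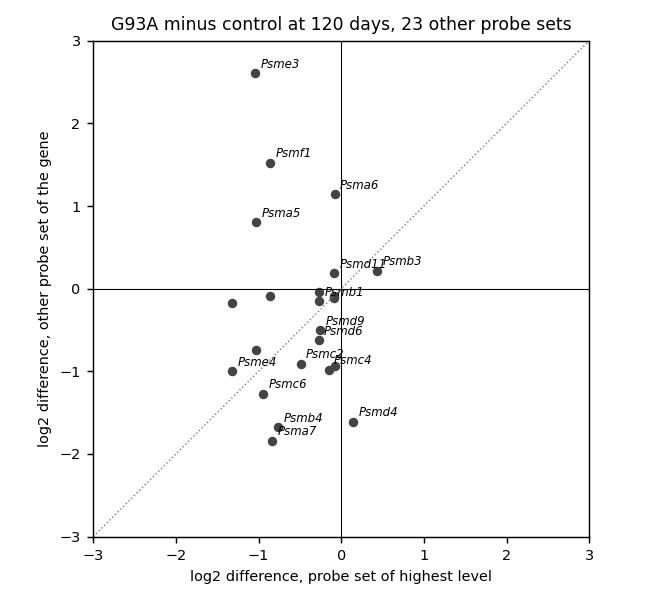
Each point is 1 of 23 other tested probe sets of 16 proteasome genes; axes are log2 differences, G93A minus control at 120 days, of the probe set of highest level (horizontal) and of the other one (vertical), with a dotted line of equality. Of the points 17 share the sign of the chosen probe set, and Psme3 at 2.61 is farthest on the opposite side.

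Genes that work with the proteasome and fall outside the naming rule were measured for 21 of 34 listed symbols. Some of the listed symbols are synonyms. The genes include shuttle factors that carry ubiquitinated proteins to the proteasome, deubiquitinases and regulators of proteasome genes. At 60 days limma called 0 of 21, with 4 higher (background 8.1%) and 1 lower (background 4.87%) at unadjusted p under 0.05. The smallest p were those of the shuttle factor Ubqln2 (1.85 ± 0.55, limma adjusted p = 0.124), of Akirin2, a factor for nuclear import of proteasomes (1.54 ± 0.58, limma adjusted p = 0.241), and of the ubiquitin ligase Ube3a (1.42 ± 0.56, limma adjusted p = 0.270).

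At 120 days 0 of 21 were called, with 2 higher (background 5.69%) and 4 lower (background 6.25%) at unadjusted p under 0.05. Akirin2 (-1.63 ± 0.58, limma adjusted p = 0.252) and Ubqln1 (-1.98 ± 0.76, limma adjusted p = 0.287) were below control, and Bag6, a chaperone for mislocalised proteins, was above it (2.18 ± 0.86, limma adjusted p = 0.303). The change in the genotype difference from 60 to 120 days was called for Ubqln2 (-3.09, limma adjusted p = 0.0378) and Akirin2 (-3.17, limma adjusted p = 0.0432), which are named here after their values were seen. As means of all their probe sets the 2 changes were -0.30 and -1.33, and neither was called. Leaving out 1 array ended the call of Ubqln2 in 7 of 18 fits (limma adjusted p of 0.0528 to 0.139) and that of Akirin2 in 11 of 18 (0.0525 to 0.129).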

How the data were processed

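The authors deposited 1 linear-scale intensity for each probe set and array. The submitters' processing notes name MAS5 as its source, without version or settings. Over the 18 arrays the mean was 100 to 100.1 after trimming 2% at each end. MAS5 subtracts mismatch signal, so low values are noisy, and the number of arrays limits the precision: the SE of a proteasome gene's difference at 1 age was 0.29 to 1.09. Signals under 1 (0.236% of values) were set to 1 and log2 taken.

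Groups come from the sample titles. Probe sets above their array's median on at least 3 of 18 arrays were tested, 16565 of 22690. Differences were fitted with limma 3.58.1 in R 4.3.3 on 6 group means (12 residual degrees of freedom, trend, two-sided), with Benjamini-Hochberg adjustment over those 16565. Shares of called genes use 1 probe set for each of 10020 genes. The code was tested on simulated data. Named genes were those called, up to 4 a direction of smallest p in each comparison, the catalytic and interferon-induced subunits at 120 days, and up to 3 associated genes an age. Signals were also given for other members. The members, gene lists and markers were chosen with earlier results of these data known. Replicate numbers were checked for pairing and did not pair the arrays. Alternatives covered normalization, centring, filter, floor, probe set choice, array quality, array weights and each array left out.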

Additional observations from a re-analysis of the deposited data

Results flagged for a closer look

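Limma called a change in the genotype difference (G93A minus control) from 60 to 120 days for 2 of 44 proteasome genes (background 2.11% in either direction). For Psma3 the change in log2 signal was -1.90 (limma adjusted p = 0.0390), and for Psmd14 it was -2.02 (limma adjusted p = 0.0396). Each had 3 of 3 G93A arrays above the controls at 60 days, and in each the genotypes overlapped at 120 days. Under 31 alternatives the call was kept in 16 for Psma3 and in 14 for Psmd14. Each is measured by 1 probe set.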

How the results depend on the processing

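At each of the 3 ages 0 proteasome genes were called by limma under all 31 alternatives, and 32 to 41 of the tested genes were below control at 120 days. Median log2 differences moved as follows. With arrays centred on their medians, which moves the median of all genes from 0.07 to -0.26 at 120 days, all genes of the module stood at 0.42 at 60 days and -0.82 at 120 days, with -0.89 for the core and -0.83 for the lid at 120 days. With the Gapdh ratio in the model the module stood at -0.038, -0.20 and -0.69 at 60, 90 and 120 days and the core at -0.0015 at 60 days, and with the hybridization-control level it stood at -0.051 at 60 days. As means of all probe sets the lid was at 0.066 at 60 days, and with other probe sets preferred the core was at 0.24 at 90 days. Without a filter the 3 immunoproteasome subunits were at 0.068 at 60 days and 0.12 at 120 days. Leaving out 1 array gave, at 60 days, -0.058 to 0.25 for the module, -0.054 to 0.28 for the core and -0.47 to 0.0091 for the lid, and at 120 days -0.76 to -0.43 for the module, -0.85 to -0.48 for the core, -1.32 to -0.35 for the base and -2.32 to -0.36 for Psmb10. Psme1 at 120 days ran from -1.11 to 0.32 in those fits. Psmb6 at 120 days was 0.065 with quantile normalization, and Psmd11 in controls, 120 minus 60 days, was 0.67 with other probe sets preferred. The causes were not tested.

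The 2 calls of the change in the genotype difference became 7 with centring, 1 with quantile normalization, array weights or the Gapdh ratio, 0 without a filter, with only the ages compared, with the hybridization-control level or as means of probe sets, and 0 to 5 without 1 array. The 3 calls in G93A became 1 with centring or only the ages compared, 0 with the hybridization-control level or as means of probe sets, and 0 to 4 without 1 array. The 6 calls in controls became 11 with centring, 3 without a filter, 2 with array weights, 1 with only the ages compared, 0 with the Gapdh ratio, and 1 to 6 in either direction without 1 array. Replicate numbers did not pair the arrays (correlations of same-numbered arrays -0.12 to 0.06, 0 of 9 pairs over 0.1). With the replicate block the change in the genotype difference was called for 1 gene, Psmg2 (limma adjusted p = 0.0483), with 0.0587 for Psma3 and 0.0643 for Psmd14. Signals near or below the array median limit Psmb10, Psmc3, Psmd13, Psme3 and Psmg2.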
